A study of Homo sapiens with 2 samples.

Results

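Molecular chaperones and their co-chaperones were described in PAR-CLIP libraries (photoactivatable-ribonucleoside-enhanced crosslinking and immunoprecipitation) of the CCCH zinc finger proteins ZC3H7A and ZC3H7B. The members were the genes whose symbols match the families HSP90, HSPA, HSPB, HSPD, HSPE, HSPH, DNAJA, DNAJB, DNAJC, CCT with TCP1, BAG and PFDN. There were 63 such genes among 10145 genes with a row in either table. The rule uses symbols and no measured value, although results of these data were known when it was set.

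Each protein was expressed with a Flag/HA tag in HEK293 cells, an established line of human embryonic kidney origin, in its Flp-In T-REx form, where a transgene is placed at a defined site and induced with doxycycline. Expression was switched on with 1 µg/mL doxycycline for 24 h, and RNA carried 4-thiouridine (100 µM, 16 h) before irradiation at 365 nm. The libraries therefore share the line, the tag, doxycycline, 4-thiouridine and overexpression. They differ in the protein that was overexpressed in the cells and pulled down. Each protein had 1 library, and no library came from cells without a tagged protein. No difference between the proteins was tested for this reason, and all intervals below cover counting error alone.

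Chaperones hold unfolded chains and release them in cycles of ATP binding and hydrolysis. HSP70 proteins take up short hydrophobic stretches, J-domain proteins (DNAJ) deliver the client and start ATP hydrolysis, and BAG and HSP110 proteins exchange the nucleotide. HSP90 acts later, on nearly folded kinases and receptors. The ring-shaped chaperonins enclose their client, TRiC in the cytosol with prefoldin as its feeder, and HSPD1 with its lid HSPE1 in mitochondria.

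The deposited tables give, per gene, the number of read clusters, the reads in them and the distinct reads in them. Reads on genes summed to 3779662 with ZC3H7A and 2409465 with ZC3H7B. Each distinct read was counted 12.6 and 1.99 times on average, and since repeated copies of a read are not separate molecules, intervals on reads are too narrow, most of all in the ZC3H7A library. On the members these averages were 15.3 and 2.13. Reads are not corrected for transcript length, so they are compared between libraries for the same gene and not between genes. The transcripts of the tagged proteins followed the labels, with log2 ratios of ZC3H7B over ZC3H7A of -8.54 for ZC3H7A and 1.96 for ZC3H7B.

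Of the 63 members, 57 had clusters in the ZC3H7A library, 61 in the ZC3H7B library and 55 in both. The shared genes were 96.5% of the members listed for ZC3H7A and 90.2% of those listed for ZC3H7B, against 88.0% and 78.8% for all genes. Chaperone genes held 2.09% of all ZC3H7A reads and 1.21% of all ZC3H7B reads. In distinct reads these shares were 1.72% and 1.13%. The median member held 488 reads in 8 clusters with ZC3H7A and 205 reads in 13 clusters with ZC3H7B, while the median over all genes was 135.5 reads in 4 clusters and 82 reads in 7 clusters.

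The ratio of a gene is its reads with ZC3H7B over its reads with ZC3H7A, on a log2 scale with the median gene at 0. A gene is called higher in a library where its whole exact 95% interval lies beyond 2-fold. All 55 members listed in both tables passed the minimum of 20 summed reads, and 16 of them (29.1%) were higher in the ZC3H7A library, against 18.0% of 7168 genes compared. A further 9 (16.4%) were higher in the ZC3H7B library, close to the background of 18.2%. Intervals narrow as reads rise, and members held more reads than all genes at the median, so these backgrounds are not matched for depth. With at least 100 summed reads, 30.2% of 53 members and 19.7% of 5855 genes were higher with ZC3H7A. The shares higher with ZC3H7B were then 17.0% and 18.8%. The median log2 ratio of the members was -0.61, with 35 of 55 below 0. With distinct reads in place of reads, 9 members (16.4%) were higher with ZC3H7A, against a background of 10.1%. The 8 higher with ZC3H7B (14.5%) lay above their background of 7.28% in that count, and the median was -0.52. All 9 and 7 of the 8 had the same call in reads. When the reads were divided by the number of clusters, 5 were higher with ZC3H7A (background 4.65%) and 0 with ZC3H7B (background 6.18%), and the median was -0.09. The amount of each transcript in the cells was not analysed, so recovery by the protein and transcript amount cannot be told apart.

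**Figure D1:**
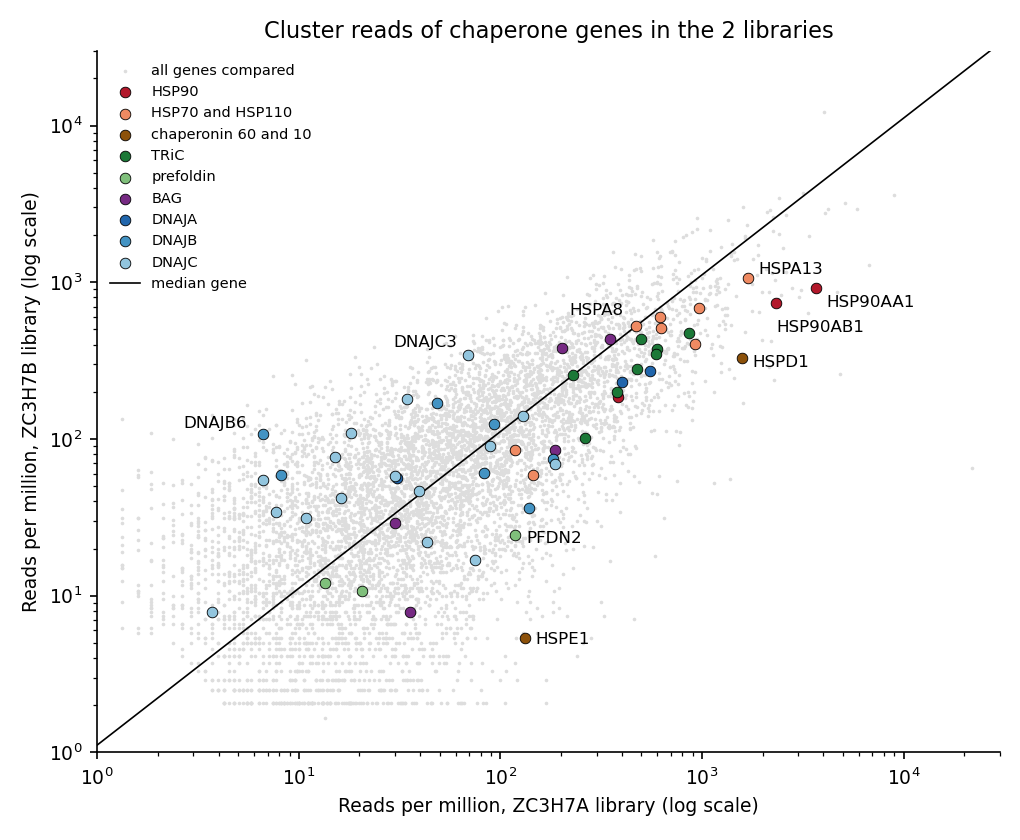
Reads of each member, scaled to a common library size (rpm), in the ZC3H7A library (x axis, log scale) and the ZC3H7B library (y axis, log scale), coloured by family over all genes compared in grey; the line marks the median gene. HSP90, chaperonin and most TRiC genes lie below the line, and several DNAJB and DNAJC genes lie above it, DNAJB6 farthest.

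The members split by family. All 9 members higher in the ZC3H7B library were J-domain genes, and 11 of the 16 higher in the ZC3H7A library were not. Of 29 compared members outside the DNAJ families, 11 were higher with ZC3H7A and 0 with ZC3H7B, with a median of -0.92 (backgrounds 18.0% and 18.2%). Of 26 DNAJ genes, 5 were higher with ZC3H7A and 9 with ZC3H7B, with a median of 0.75. In distinct reads the counts were 8 and 0 outside DNAJ (median -0.86), and 1 and 8 within DNAJ (median 0.23), against backgrounds of 10.1% and 7.28%. By mean reads per cluster they were 3 and 0 outside DNAJ (median -0.27), and 2 and 0 within DNAJ (median 0.07), so no DNAJ gene was higher with ZC3H7B by that measure. These groups were compared after the ratios had been seen.

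The cytosolic HSP90 genes held the most reads of any member with ZC3H7A. HSP90AA1, the stress-inducible cytosolic form, held 13859 reads (3667 rpm, scaled to a common library size) with ZC3H7A and 2208 (916 rpm) with ZC3H7B. It ranked 11 and 121 among all genes by reads. Its log2 ratio was -2.16 (-2.22 to -2.09), or -1.64 (-1.79 to -1.49) in distinct reads, so it was higher in the ZC3H7A library by both counts.

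HSP90AB1, the constitutive cytosolic form, held 8818 reads with ZC3H7A and 1789 with ZC3H7B, in 24 and 25 clusters. Its log2 ratio was -1.81 (-1.88 to -1.73), and -1.38 (-1.55 to -1.21) in distinct reads. HSP90B1, the form of the endoplasmic reticulum, held 1455 and 448 reads, at -1.21 (-1.36 to -1.05). In distinct reads HSP90B1 stood at -1.01 (-1.34 to -0.68) and was no longer called. All 3 genes were thus lower with ZC3H7B relative to the median gene, and the cytosolic pair kept the call in distinct reads.

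The mitochondrial chaperonin pair leaned the same way. HSPD1, the ring subunit, held 5952 reads with ZC3H7A and 789 with ZC3H7B, at a log2 ratio of -2.42 (-2.53 to -2.32). HSPE1, the lid subunit, held 503 reads in 4 clusters with ZC3H7A and 13 reads in 1 cluster with ZC3H7B. Its ratio of -4.78 (-5.70 to -3.99) was the lowest of the members. Both were higher with ZC3H7A by reads, by distinct reads (-1.79 and -4.19) and by mean reads per cluster (-1.86 and -1.81). HSPE1 is a case of few reads, with 10 distinct reads in the ZC3H7B library.

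The heat shock element, to which heat shock factors bind, is the classical promoter element of this group, and it is shown here because genes on both sides of the ratio carry it. PAR-CLIP does not read promoters, so the match is a description of the genes. RefSeq windows of 300 bases (250 before to 50 after the start site, GRCh38.p14) were searched for GAANNTTCNNGAA and its reverse complement TTCNNGAANNTTC, whose matches may overlap. The search covered 55 of the 63 members, and 6 of these genes (10.9%) held a match, against 0.608% of 27305 genes. By reads they were HSP90AA1, HSP90AB1, HSPD1 and DNAJA1, higher with ZC3H7A, HSPA8, higher in neither library, and DNAJB6, higher with ZC3H7B. DNAJA1 was not called in distinct reads (-0.77), and its match begins at 3, after the annotated start. The windows of HSP90AB1, HSPA8 and HSPD1 held 2 matches each, and the one nearer the start is printed. For 5 of the genes a match is given with 8 bases on either side, 5′ to 3′ on the gene's strand, with the match in capitals.
HSP90AA1: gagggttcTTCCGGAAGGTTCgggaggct
HSP90AB1: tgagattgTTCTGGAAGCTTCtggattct
HSPD1: attttctgGAAAGTTCTGGAAccgagcga
HSPA8: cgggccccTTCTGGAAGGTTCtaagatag
DNAJB6: agagccgaGAACCTTCGCGAAggtggggc
The windows lie at chr14:102087112-102087140 (minus strand) for HSP90AA1, chr6:44247823-44247851 (plus) for HSP90AB1 and chr2:197500060-197500088 (minus) for HSPD1. They lie at chr11:123062171-123062199 (minus) for HSPA8 and chr7:157336865-157336893 (plus) for DNAJB6. Relative to the annotated start the matches begin at -88, -112, -240, -55 and -131 in the order printed.

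HSP70 and HSP110 genes leaned less than HSP90 genes. Of 8 compared, 2 were higher with ZC3H7A (background 18.0%) and 0 with ZC3H7B (background 18.2%). The median was -0.64 (-0.44 in distinct reads). By mean reads per cluster the median was 0.02, on the other side of 0.

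HSPA5, known as BiP, the HSP70 of the endoplasmic reticulum, held 550 reads with ZC3H7A and 141 with ZC3H7B, at -1.47 (-1.75 to -1.20). HSPH1, an HSP110 nucleotide exchange factor, held 3485 and 966 reads, at -1.36 (-1.46 to -1.26). HSPA5 kept its call in distinct reads at -1.51, and HSPH1 at -0.84 (-1.09 to -0.59) did not.

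The other HSP70 genes were called in neither direction. HSPA13, a microsome-associated HSP70, held 6386 and 2560 reads, at -0.83 (-0.89 to -0.76). HSPA4, of the HSP110 branch, held 3653 and 1660 reads, at -0.65 (-0.73 to -0.56). HSPA8, the constitutive cytosolic HSP70, held 1780 and 1276 reads and stood at 0.01 (-0.09 to 0.12), level with the median gene. HSPA9, the mitochondrial HSP70, stood at -0.45 and HSPA14, a ribosome-associated HSP70, at -0.21. HSPA4L, a relative of HSPA4, stood at -0.64.

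TRiC subunits stood below the median gene or at it. The 8 genes held 14727 reads with ZC3H7A and 5956 with ZC3H7B, and their log2 ratios ran from -1.53 to 0.00 with a median of -0.92 (-0.80 in distinct reads, -0.10 by mean reads per cluster). CCT7 was the sole subunit called, with 997 and 246 reads, at -1.53 (-1.73 to -1.32) in reads and -1.95 (-2.35 to -1.55) in distinct reads.

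CCT4 held 3252 reads with ZC3H7A and 1142 with ZC3H7B, at -1.02 (-1.12 to -0.92). CCT3 held 2264 and 898 reads (-0.84), and CCT8 2242 and 842 (-0.92). CCT2 stood at -1.07, CCT6A at -0.92 and TCP1 at -0.34. CCT5, with 865 and 616 reads, stood at the median gene (0.00, -0.15 to 0.15). The subunits are present in equal number in the complex, and the intervals of CCT7 and CCT5 did not overlap.

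Prefoldin carries unfolded actin and tubulin to TRiC. PFDN2 held 449 reads with ZC3H7A and 59 with ZC3H7B, at -2.44 (-2.85 to -2.04), and kept its call in distinct reads (-2.29). PFDN1 held 51 and 29 reads, and PFDN4 78 and 26. Their intervals, -1.03 to 0.36 and -1.79 to -0.44, reach within 2-fold. PFDN5 had 10 reads in 1 cluster with ZC3H7B and is not listed for ZC3H7A.

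BAG genes encode nucleotide exchange factors of HSP70. BAG3, which links HSP70 to selective autophagy, held 135 reads with ZC3H7A and 19 with ZC3H7B, at -2.34 (-3.11 to -1.64). BAG2, an inhibitor of the CHIP ubiquitin ligase, held 702 and 205 reads, at -1.28 (-1.51 to -1.06), and in distinct reads at -0.94 (-1.44 to -0.42) was no longer called. BAG3 kept its call in distinct reads at -3.28, with 14 and 6 distinct reads.

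BAG4, a silencer of death receptor signalling, held 763 and 911 reads, at 0.75 (0.61 to 0.89). BAG5 held 1325 and 1043 reads, at 0.15 (0.03 to 0.27). The family median was -0.20, with 2 of 5 genes higher with ZC3H7A and 0 with ZC3H7B (backgrounds 18.0% and 18.2%). BAG1, which links HSP70 to the proteasome, held 113 and 70 reads (-0.20).

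DNAJA genes encode the J-domain proteins closest to bacterial DnaJ. DNAJA1 held 2093 reads with ZC3H7A and 651 with ZC3H7B, at -1.19 (-1.32 to -1.06), and in distinct reads it was not called (-0.77, -1.06 to -0.48). DNAJA2 held 1515 and 555 reads, at -0.96 (-1.10 to -0.81). DNAJA3, the mitochondrial member, held 116 and 136 reads, at 0.72 (0.35 to 1.09). DNAJA1 was therefore the single member of the family called, in reads alone.

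DNAJB genes were spread over both directions, with 2 of 7 higher with ZC3H7A, 3 higher with ZC3H7B and a median of 0.26. The backgrounds were 18.0% and 18.2%. DNAJB6, which suppresses aggregation of polyglutamine proteins, held 25 reads in 2 clusters with ZC3H7A and 258 reads in 20 clusters with ZC3H7B. Its log2 ratio of 3.86 (3.27 to 4.51) was the highest of the members. It stood at 3.28 (1.90 to 5.18) in distinct reads.

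DNAJB12 and DNAJB14, related J-domain proteins of the endoplasmic reticulum membrane, lay on opposite sides. DNAJB12 held 31 and 141 reads, at 2.68 (2.11 to 3.29). DNAJB14 held 523 and 88 reads, at -2.08 (-2.42 to -1.75). In distinct reads DNAJB12 kept its call (2.93), and DNAJB14 at -1.65 (-2.30 to -0.99) did not.

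DNAJB9, an inhibitor of the stress sensor IRE1, held 183 and 408 reads, at 1.65 (1.39 to 1.91). DNAJB4 held 688 and 180 reads, at -1.44 (-1.69 to -1.20). Neither was called in distinct reads, at 1.15 (0.43 to 1.97) and -0.61 (-1.13 to -0.07). DNAJB1, the main stress-inducible J-domain protein of the cytosol, held 352 and 299 reads and stood at 0.26 (0.03 to 0.48). DNAJB11, a BiP partner, held 313 and 146 reads (-0.61).

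DNAJC is the mixed J-domain family, whose members share little beyond the J domain. Of 16 genes compared, 6 were higher with ZC3H7B (background 18.2%) and 2 with ZC3H7A (background 18.0%). The median was 1.08 (1.50 in distinct reads). By mean reads per cluster 0 of the 16 were higher in either library, and the median was 0.02. The backgrounds by that measure were 4.65% with ZC3H7A and 6.18% with ZC3H7B.

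DNAJC14, which takes part in export of receptors from the endoplasmic reticulum, held 25 reads with ZC3H7A and 132 with ZC3H7B, at 2.89 (2.27 to 3.57). DNAJC16 held 69 and 264 reads, at 2.43 (2.04 to 2.83). DNAJC9, a histone chaperone, held 130 and 434 reads, at 2.23 (1.95 to 2.53). All 3 kept their call in distinct reads.

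DNAJC18 held 57 and 185 reads, at 2.19 (1.76 to 2.65), and DNAJC27 held 29 and 83, at 2.01 (1.38 to 2.67). DNAJC3, an inhibitor of the kinase PERK in the unfolded protein response, held 262 and 829 reads, at 2.15 (1.95 to 2.36). DNAJC3 and DNAJC18 kept their call in distinct reads, and DNAJC27, with 2 distinct reads in the ZC3H7A library, did not. DNAJC5, the cysteine string protein of synaptic vesicles, was called in distinct reads alone (3.11, 1.21 to 6.19), from 2 and 72 distinct reads.

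DNAJC10, a disulfide reductase of the endoplasmic reticulum, held 282 and 41 reads, at -2.29 (-2.80 to -1.81). DNAJC2, partner of HSPA14 in the ribosome-associated complex, held 702 and 167 reads, at -1.58 (-1.83 to -1.33). DNAJC10 kept its call in distinct reads (-1.95, -2.76 to -1.14), while DNAJC2 at -1.54 (-2.10 to -0.97) fell short. DNAJC21, a factor of ribosome assembly, was near the median gene with 488 and 336 reads (-0.05). DNAJC6, the clathrin uncoating factor auxilin, held 337 and 218 reads (-0.14). The 5 remaining DNAJC genes compared (DNAJC1, DNAJC11, DNAJC12, DNAJC24 and DNAJC25) ran from -1.13 to 1.38, and DNAJC11 had the fewest reads, 14 and 19.

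**Figure D2:**
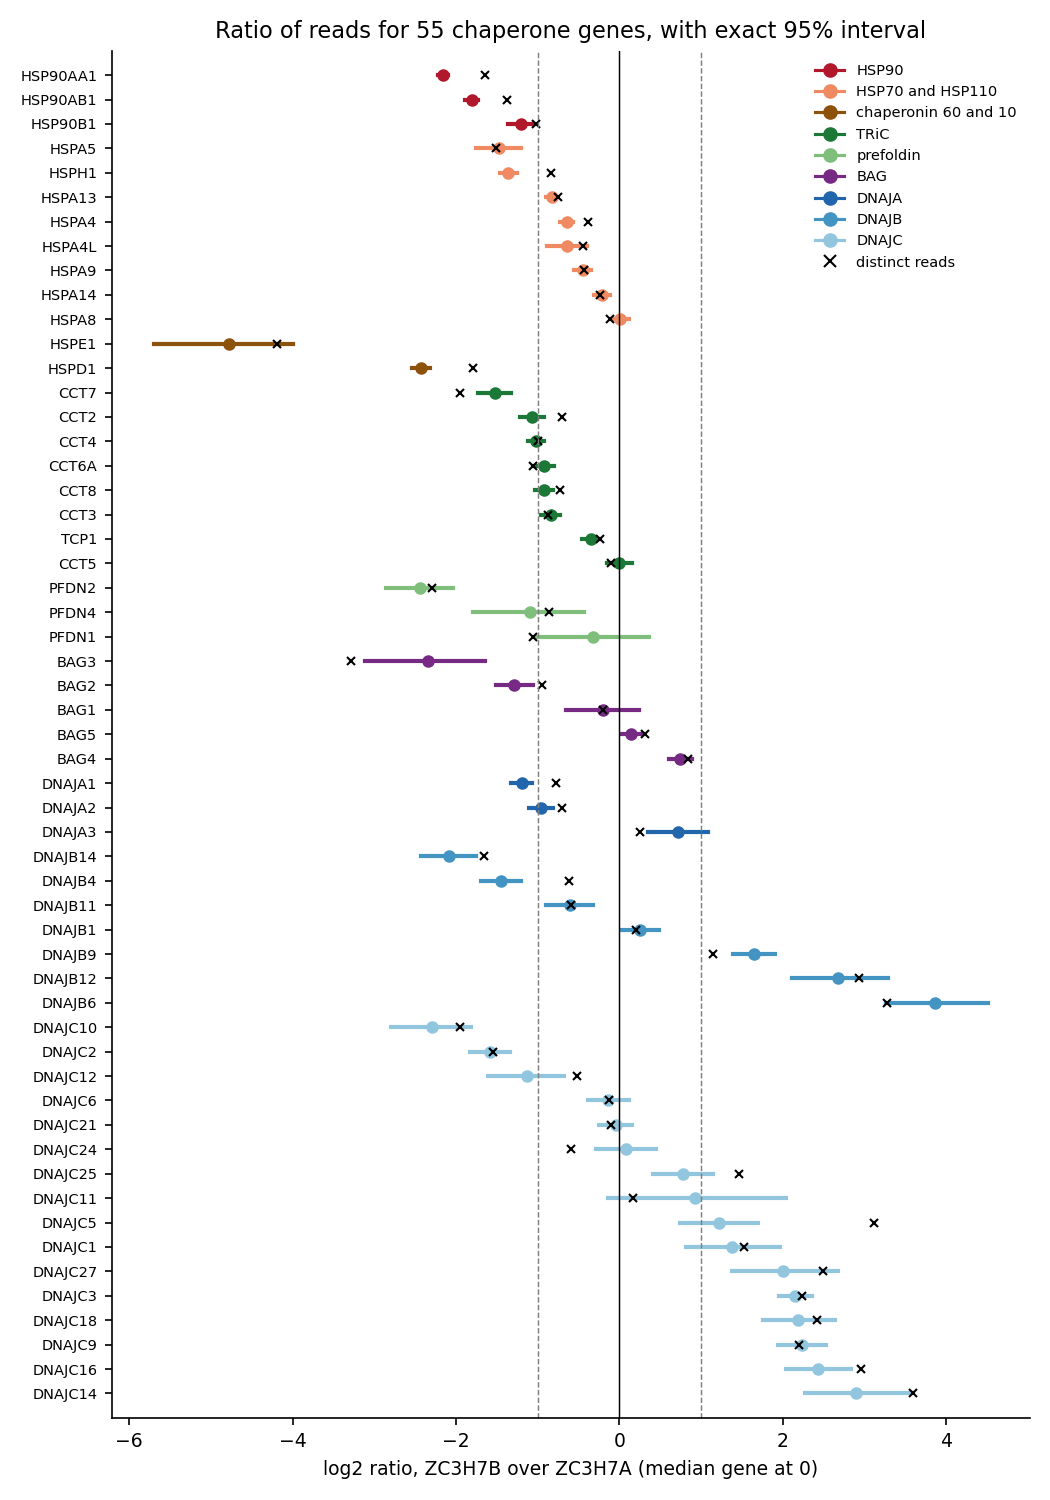
Log2 ratio of reads, ZC3H7B over ZC3H7A, for the 55 members listed in both tables, ordered within family; circles are reads, bars their exact 95% intervals, crosses distinct reads, dashed lines 2-fold. HSP90 and chaperonin genes lie left of 0, TRiC genes left of 0 or at it, and the DNAJB and DNAJC genes span -2.29 to 3.86.

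The called groups were picked by their reads, so thin cover in the other library follows in part from the call. The number of clusters is given as a description. The 9 genes higher with ZC3H7B were thinly covered in the ZC3H7A library. They held 1 to 4 clusters and 2 to 18 distinct reads in the ZC3H7A library, and 8 to 32 clusters and 47 to 354 distinct reads in the ZC3H7B library. The 16 genes higher with ZC3H7A held 4 to 26 clusters there and 1 to 27 in the ZC3H7B library. HSPE1, BAG3, PFDN2 and DNAJC10 had under 5 clusters in the ZC3H7B library, and the other 12 had between 10 and 27.

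By compartment, members of the endoplasmic reticulum were called in both directions by reads. Of 12 members assigned to it from textbook knowledge, 4 were higher with ZC3H7A (HSPA5, HSP90B1, DNAJC10, DNAJB14) and 5 with ZC3H7B (DNAJB9, DNAJB12, DNAJC3, DNAJC16, DNAJC18). HSPA13, DNAJB11 and DNAJC1 were in neither group, and DNAJC14 was not among the 12. The backgrounds over all genes were 18.0% and 18.2%. In distinct reads the counts were 2 and 4 (backgrounds 10.1% and 7.28%). By mean reads per cluster they were 1 and 0 (backgrounds 4.65% and 6.18%). Of 5 mitochondrial members compared, HSPD1 and HSPE1 were higher with ZC3H7A and 0 with ZC3H7B.

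Members listed in a single table had few reads. DNAJB2, a neuronal J-domain protein, had 96 reads in 1 cluster with ZC3H7A. HSPB11, whose current symbol is IFT25 and whose product belongs to the intraflagellar transport complex, had 108 reads in 4 clusters with ZC3H7A. It was the sole HSPB gene with a row.

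The 6 genes listed for ZC3H7B alone held 6 to 24 reads. DNAJC22 had 24 reads, and DNAJC13, an endosomal protein, and DNAJC8, a splicing-associated protein, had 23 each. PFDN5 had 10, DNAJB5 had 7 and DNAJC19, of the mitochondrial import motor, had 6. The lowest read sum of any listed gene was 5 and 4 in the respective libraries, so a gene without a row may still have had reads.

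Chaperone clusters lay in coding sequence more often than clusters of all genes. With ZC3H7A, 369 of 596 member clusters were coding, or 61.9% (exact 95% interval 57.9 to 65.8%), against 42.7% of the clusters of all genes. With ZC3H7B, 352 of 882 were coding, or 39.9% (36.7 to 43.2%), against 29.6%. The 3' UTR held 21.0% (17.8 to 24.5%) and 39.1% (35.9 to 42.4%) of member clusters, against 39.8% and 55.8%. The pooled share of the members lay above that of all genes in both libraries, and not every family shared this.

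Families differed in region. HSP90 genes had 58 of 69 clusters (84.1%) in coding sequence with ZC3H7A and 51 of 72 (70.8%) with ZC3H7B. TRiC genes had 98 of 117 (83.8%) and 85 of 138 (61.6%). Both families lay above all genes, as did HSP70 and HSP110 genes. In the latter the coding share was 55.1% and 42.9%, in BAG genes 50.0% and 24.2%. DNAJA genes had 55.6% and 37.5%, DNAJB genes 48.6% and 23.3%, and DNAJC genes 42.2% and 23.8%. With ZC3H7B, BAG, DNAJB and DNAJC thus lay below the 29.6% of all genes, and DNAJC with ZC3H7A was near the 42.7%. The share was lower with ZC3H7B in each of these 7 families, while the chaperonin pair, with 9 of 16 and 12 of 17 clusters, went the other way within wide intervals.

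**Figure D3:**
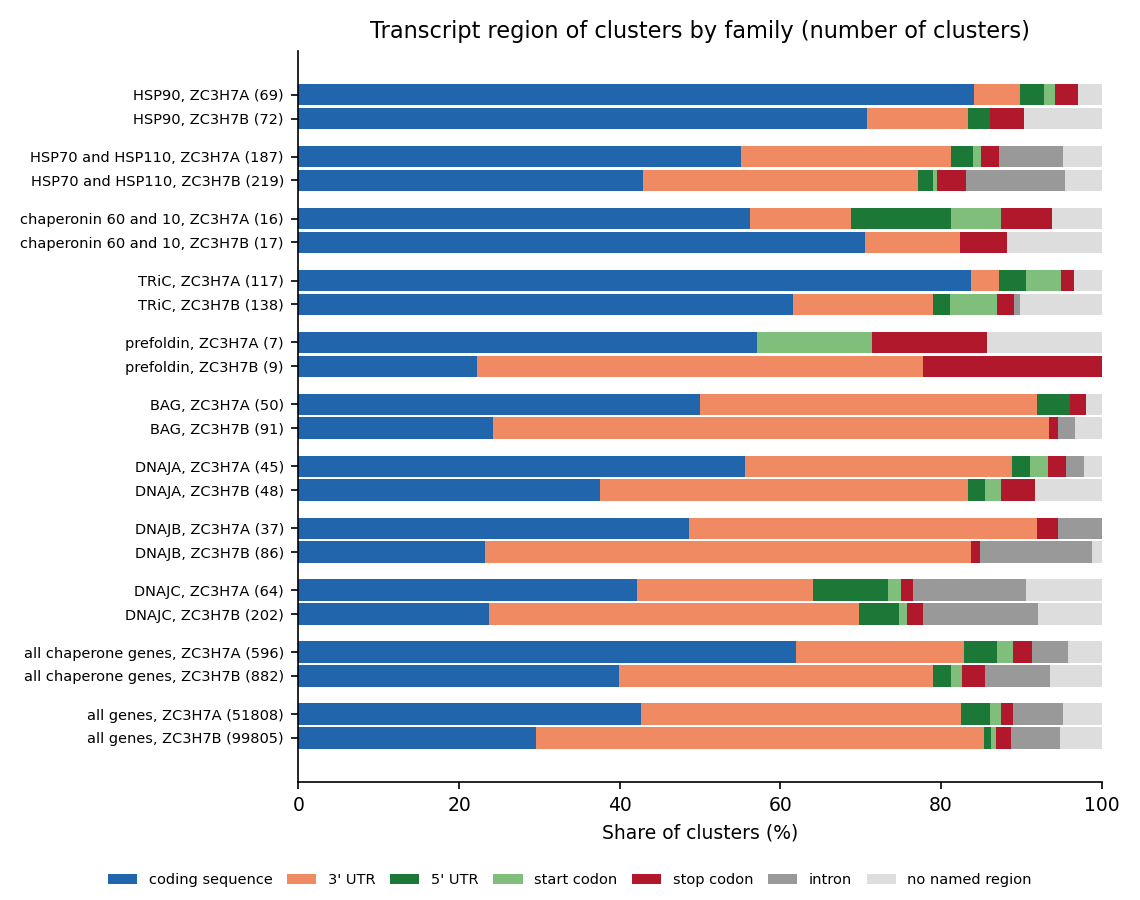
Share of clusters (x axis, %) in each transcript region, by family and library, with the number of clusters in brackets. HSP90 and TRiC bars are mostly coding sequence. The 3' UTR part is larger in the ZC3H7B bar of all genes and of every family but the chaperonin pair.

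The same difference was present within genes. With at least 20 reads required in each library, 52 members were compared, and 39 of them had more of their clusters in coding sequence with ZC3H7A (background 60.4%). A further 9 had more with ZC3H7B (background 23.6%). Subtracting the ZC3H7A share from the ZC3H7B share gave a median of -16.3 percentage points, against -8.33 over 5988 genes. For the 3' UTR, 37 of 52 members had the higher share with ZC3H7B (background 62.8%) and 8 with ZC3H7A (background 18.4%). The median difference was 12.3 points in members and 10.0 in all genes.

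CCT4 had all 13 clusters in coding sequence with ZC3H7A and 10 of 20 with ZC3H7B. HSPA4L, of the HSP110 branch, had 7 of 12 and 6 of 23. BAG5 had 13 of 21 and 11 of 36, and CCT5 11 of 13 and 12 of 22. These were the largest differences among the 30 members with at least 8 clusters in both libraries. Of the 30, 25 had the higher coding share with ZC3H7A and 4 with ZC3H7B. The share over all genes at this minimum was not counted, so these counts have no background. With at least 3 clusters in both libraries, the median difference was -16.4 points in 41 members and -10 in 4517 genes.

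The 4 exceptions differed little. DNAJC6 had 0 of 9 clusters in coding sequence with ZC3H7A and 1 of 11 with ZC3H7B, and HSPD1 had 8 of 12 and 11 of 16. HSPA13 had 17 of 44 and 14 of 35, and HSP90AB1 21 of 24 and 22 of 25. HSP90AB1 thus kept its coding pattern in both libraries, whereas its paralog HSP90AA1 had 21 of 26 and 16 of 27, with 2 and 7 clusters in the 3' UTR.

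**Figure D4:**
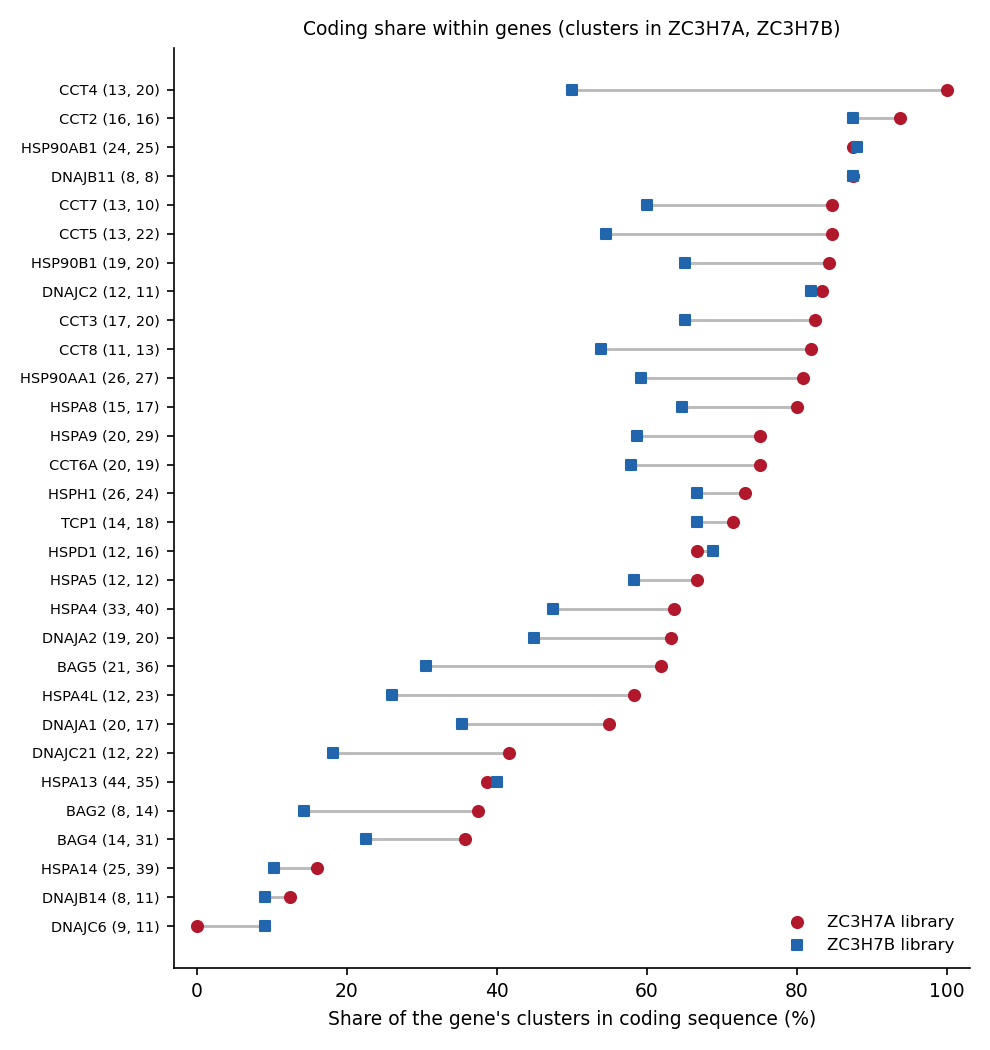
Share of each gene's clusters in coding sequence (x axis, %) in the ZC3H7A library (red circles) and the ZC3H7B library (blue squares), for the 30 members with at least 8 clusters in both; cluster numbers are in brackets. The square lies left of the circle for 25 genes, with the longest line for CCT4.

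In the 3' UTR, clusters were most numerous on the following members. HSPA13 had 25 and 20 clusters in the 3' UTR. DNAJC3 had 2 of 4 clusters in the 3' UTR with ZC3H7A and 25 of 32 with ZC3H7B, BAG5 had 8 and 25, and BAG4 had 8 of 14 and 22 of 31. HSPA4 had 10 of 33 and 16 of 40.

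Intron clusters were concentrated on single genes. HSPA14 had 14 of 25 clusters in introns with ZC3H7A and 27 of 39 with ZC3H7B, and DNAJC21 had 6 of 12 and 18 of 22. DNAJB6 had 1 of 2 and 11 of 20. These 3 genes held 56 of the 71 member clusters in introns of the ZC3H7B library. DNAJC9 had 9 of 22 clusters in the 5' UTR with ZC3H7B and 1 of 4 with ZC3H7A, and DNAJC9-AS1, its antisense gene by name, had 57 reads in the ZC3H7A library. Whether strand was used in counting is not given in the sources used here, so reads of this pair are uncertain.

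The ratio of a member went with its coding share. Across the 55 members the correlation of the log2 ratio with the coding share of both libraries pooled was r = -0.51 and rho = -0.52, and across all 7168 genes compared r = -0.23 and rho = -0.22. Genes are not independent replicates, and both measures come from the same clusters. Of 25 members with at least 50% of their clusters in coding sequence, 12 (48.0%) were higher with ZC3H7A and 0 with ZC3H7B, with a median log2 ratio of -1.07. Of 2336 such genes in the whole table, 26.9% were higher with ZC3H7A and 9.63% with ZC3H7B, with a median of -0.56. Of 30 members below 50%, 4 (13.3%) were higher with ZC3H7A and 9 (30.0%) with ZC3H7B, against 13.8% and 22.4% of 4832 such genes, and the medians were 0.20 and 0.25. In distinct reads the members' counts were 8 and 0 in the first group and 1 and 8 in the second. Over all genes they were 364 and 76 of 2336 in the first group, and 360 and 446 of 4832 in the second. The part of coding share in the ratios was not tested.

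T-to-C conversion, the mark of a crosslink, was high on the members. Each gene has a converted fraction, taken as the median of its clusters. Over 57 members with ZC3H7A the middle value was 0.99, and over 61 with ZC3H7B it was 0.92, against 1 and 0.94 over all genes. DNAJC18 was the one member under 0.6, at 0.28 on its single cluster of 57 reads in the ZC3H7A library, and stood at 1 with ZC3H7B. DNAJC1 (0.78) was also under 0.8 in the ZC3H7A library, and DNAJC13 (0.67) and PFDN1 (0.74) in the ZC3H7B library. The call of DNAJC18 as higher with ZC3H7B rests on that weakly converted cluster for its ZC3H7A value.

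Other folding genes outside the families were set beside the members, from 94 symbols in 7 lists. Of 73 compared, 25 (34.2%) were higher with ZC3H7A and 5 (6.85%) with ZC3H7B, with a median of -0.52 (backgrounds 18.0% and 18.2%). In distinct reads the counts were 22 and 1 (backgrounds 10.1% and 7.28%). By mean reads per cluster they were 5 and 8 (backgrounds 4.65% and 6.18%), with a median of -0.12. HSP90 co-chaperones had 6 of 16 higher with ZC3H7A and 0 with ZC3H7B, among them CACYBP, with 2761 and 397 reads (-2.31), or -1.02 and not called in distinct reads. PTGES3, the p23 co-chaperone, held 683 and 833 reads (0.78).

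Folding factors of the endoplasmic reticulum had 9 of 20 higher with ZC3H7A and 1 with ZC3H7B (backgrounds 18.0% and 18.2%). Of the 20, 15 lay below 0. The 2 with the most reads lay above 0. CANX, the lectin chaperone calnexin, held 2909 and 2522 reads (0.29), and TXNDC5, a protein disulfide isomerase, 1268 and 2010 (1.16), or 0.65 and not called in distinct reads. HSP70 partners had 3 of 10 higher with ZC3H7A and 1 with ZC3H7B. UBQLN2, which hands clients to the proteasome, held 868 and 553 reads (-0.16).

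Partners of TRiC and prefoldin had 2 of 10 higher with ZC3H7A and 1 with ZC3H7B (backgrounds 18.0% and 18.2%). PDRG1 held 1246 and 135 reads (-2.71) and URI1 1877 and 1164 (-0.20). Mitochondrial folding factors had 2 of 10 and 1 of 10, with GRPEL2, a nucleotide exchange factor, at 9080 and 4879 reads (-0.40) and TOMM70A, an import receptor, at 1250 and 692 (-0.36). Nascent chain factors had 3 of 5 and 0, with BTF3 at 1875 and 352 reads (-1.92) and BTF3L4 at 856 and 790 (0.38). Of the heat shock factor list, HSF2 stood at -0.01 with 486 and 342 reads and HSBP1, which binds the factor HSF1, at 1.47 with 316 and 620.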

How the data were processed

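PAR-CLIP clusters of 2 libraries, Flag/HA-ZC3H7A and Flag/HA-ZC3H7B, were grouped by sample title. The genome build (hg19) and the tools STAR 2.5.2a, Bowtie and cutadapt are those of the submitters' processing notes. How clusters were called is not given in the sources used here. Deposited counts comprise, per the file headers, clusters, reads and distinct reads per gene and clusters per region, with the exon column read as coding sequence because each UTR has its own column. The deposited fraction is the median T-to-C fraction over clusters, and the deposited sum of these fractions is a signal used for mean conversion. Rows naming classes of repeats or small RNAs (282 and 407) were left out.

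Ratios used all genes listed in both tables with at least 20 summed reads, scaled on the median gene, with exact binomial 95% intervals. The ratio step was tested on simulated independent reads. Repeated copies of a read were not simulated, so that test does not cover their effect on the intervals. Members and lists were chosen with earlier results of these data known. Named genes were the leading 3 of each family by reads, the 6 lowest and 6 highest ratios from 100 reads, genes in 1 table, the extremes of coding share, 3' UTR clusters and conversion, and the leading 2 of each other list, of which 1 gene is not reported here; further members are named for a count or were chosen after their values were seen. RefSeq matched 62 of 63 symbols. Of 89 coding symbols there that match the rule, those without a row were not analysed here. Python 3.11.15, pandas 2.3.3, numpy 2.4.6, scipy 1.17.1, matplotlib 3.10.9 and edgeR 4.0.16 (TMM scaling alone, no test) in R 4.3.3 were used. Alternatives changed the count, scaling, minimum and missing genes.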

Additional observations from a re-analysis of the deposited data

How the results depend on the processing

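Calls depended on what was counted. Members higher with ZC3H7A numbered 16 by reads, 9 by distinct reads, 5 by reads divided by clusters and 0 by clusters, and members higher with ZC3H7B numbered 9, 8, 0 and 0. Clusters are few per gene, and over all 7168 genes 16 and 23 were called by them. The median log2 ratio stayed below 0, from -0.66 to -0.09, over these and all scaling, minimum, missing-gene and pseudogene alternatives. Scaling on total reads moved the median of all genes to 0.16 and gave 13 and 9 calls; BAG2, DNAJA1 and HSP90B1 then lost theirs. TMM scaling, other minimums and adding pseudogene reads (chosen after seeing the data) left 16 and 9, and missing genes at 0 gave 18 and 12. By mean reads per cluster 14 of 55 members changed sign, 3 of them called in reads (DNAJA1 at 0.017, DNAJC18 at -0.74 and DNAJC27 at -0.015), by clusters 10, of them DNAJB4 (0.074) called, and by distinct reads 3, of them 0 called; the cause was not tested. The DNAJB median was -0.18 with missing genes at 0. Of 37 genes named by the fixed choices and holding a ratio, 7 lost a call in distinct reads. DNAJB14 and DNAJC27, outside these 37, also lost theirs. Among all members, 9 of the 16 higher with ZC3H7A by reads kept the call in distinct reads. Of the 9 higher with ZC3H7B by reads, 7 kept it. The coding share difference ran from -16.4 to -13.1 points, and coding shares reached 64.6% and 42.7% over named regions. The alternative without HSPA1A and HSPA1B was not run, since neither gene had a row for either library. No paired analysis was possible because each protein has 1 library.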

Other observations

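Pseudogenes of members had rows of their own, and reads can be split between a gene and its near-identical copy. HSP90AB3P held 741 reads with ZC3H7A and 186 with ZC3H7B, which is 8.40% and 10.4% of the reads of HSP90AB1. HSP90B3P held 108 and 16 reads (7.42% and 3.57% of HSP90B1), and CCT6P2 123 and 25 (6.83% and 3.70% of CCT6A). CCT5P1 held 67 and 8 reads (7.75% and 1.30% of CCT5), HSPA9P1 136 and 48, and TCP1P1 80 and 15. HSP90AA4P, with 156 reads, was listed for ZC3H7A alone, and HSPD1P6 and HSPD1P10, with 7 and 6 reads, for ZC3H7B alone. The read-through gene DNAJC25-GNG10 held 30 and 38 reads, beside 114 and 139 on DNAJC25.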
